A study of Arabidopsis thaliana with 72 samples.

Results

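Aquaporins are membrane channels that let water and small uncharged molecules cross membranes along their gradients. In plants they form several subfamilies: the plasma membrane intrinsic proteins (PIP1 and PIP2), the tonoplast intrinsic proteins (TIP) of the vacuole, the nodulin 26-like intrinsic proteins (NIP), which include channels for boric acid and other metalloids, and the small basic intrinsic proteins (SIP) of the endoplasmic reticulum. PIP and TIP channels carry much of the water that passes through root cells, and some also pass hydrogen peroxide or ammonia. The 35 annotated aquaporin genes of Arabidopsis were taken as a family by name, and the 6 whose count stayed under 10 in every library were dropped, which left 29 of 35 genes (of 27655 genes in the table). The dropped genes were TIP1;3, TIP5;1 and both NIP4 genes, known from pollen, and both TIP3 genes, known from seeds, and their highest counts in any library were between 1 and 6 reads. The 29 genes kept were all 5 PIP1, all 8 PIP2, 6 of 10 TIP, 7 of 9 NIP and all 3 SIP genes.

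The study asked how transcripts change within minutes to hours of N-hydroxypipecolic acid (NHP), the mobile signal of systemic acquired resistance. Whole 10-day-old seedlings of 3 genotypes were grown hydroponically in 6-well plates and treated with 0.5 mM NHP or with the MS medium alone (mock). The genotypes were sid2-2, which lacks the salicylic acid synthesis enzyme ICS1, fmo1-1, which lacks the monooxygenase FMO1 that makes NHP, and Col-0, the wild type and the background of both mutants. Seedlings of a well were pooled as 1 sample at 15 min, 30 min, 3 h or 6 h, with 3 wells per group, 24 groups and 72 libraries. Each mutant was represented by a single allele. Nothing in the labels says that wells came from separate experiments, so p-values measure the spread between wells.

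Assigned reads ranged between 19618319 and 28382977 per library. ICS1 (AT1G74710) had a median of 0.853 CPM (the read count scaled to the size of its library) in sid2-2 with NHP and 0.801 CPM in sid2-2 mock, against 10.7 CPM in Col-0 with NHP and 9.88 CPM in Col-0 mock, and FMO1 (AT1G19250) had a median of 0.189 CPM in fmo1-1 with NHP and 0.199 CPM in fmo1-1 mock, against 2.91 CPM in Col-0 with NHP and 2.29 CPM in Col-0 mock, so both targeted genes fitted their labels. The time tag of 1 library disagreed with its title. It was titled as replicate 3 of sid2-2 with NHP at 30 min and was grouped by that title. Its mean correlation was 0.990 with the other libraries of that group and 0.988 with the next group, sid2-2 mock at 30 min. With sid2-2 with NHP at 3 h, the time in its tag, it was 0.980. Values of sid2-2 with NHP at 30 min rest on it. The 3 replicates of each group differed by more than sampling noise, and no pair was identical. Shoot and root markers were both present, as whole seedlings require: the summed level of 5 green shoot markers was 12426 CPM or more and that of 6 root hair markers 85.3 CPM or more in every library.

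The RNA of TIP2;2 (AT4G17340) and TIP2;3 (AT5G47450), a pair of tonoplast channels of the root, carried the largest changes, so their sequences are shown first. On the TAIR10.1 assembly the first lies at chr4:9698940-9700472 on the plus strand and the second at chr5:19248249-19249622 on the minus strand. Their coding sequences were 81.5% identical over 753 aligned bases, and no stretch of 100 bases was shared exactly, so reads of either gene could in principle be told apart. Bases 40 to 129 of the coding sequences, from RefSeq, are given with the 10 bases that differ in capitals:
TIP2;2: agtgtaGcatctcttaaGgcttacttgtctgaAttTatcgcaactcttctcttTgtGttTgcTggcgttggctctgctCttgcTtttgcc
TIP2;3: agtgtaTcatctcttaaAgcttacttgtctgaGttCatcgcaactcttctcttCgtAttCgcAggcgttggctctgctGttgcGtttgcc

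The 250 bases upstream of both gene starts are shown because the pair moved together under NHP. The windows are chr4:9698690-9698939 (plus strand) for the first and chr5:19249623-19249872 (minus strand) for the second. Capitals mark the 51 bases that were identical in the best local alignment, between positions -100 and -25 in the first and between -240 and -167 in the second, counted from the gene start. By local alignment score (21) this pair had rank 8 among the 595 pairs of members, tied with ranks 5 to 7. The window of TIP2;3 scored higher with that of NIP5;1 (22, rank 4).
TIP2;2: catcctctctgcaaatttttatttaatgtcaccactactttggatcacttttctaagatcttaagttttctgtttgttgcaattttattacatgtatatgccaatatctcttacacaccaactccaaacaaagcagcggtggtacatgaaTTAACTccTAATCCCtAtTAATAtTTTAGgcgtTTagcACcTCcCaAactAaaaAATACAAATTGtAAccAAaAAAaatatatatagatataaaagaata
TIP2;3: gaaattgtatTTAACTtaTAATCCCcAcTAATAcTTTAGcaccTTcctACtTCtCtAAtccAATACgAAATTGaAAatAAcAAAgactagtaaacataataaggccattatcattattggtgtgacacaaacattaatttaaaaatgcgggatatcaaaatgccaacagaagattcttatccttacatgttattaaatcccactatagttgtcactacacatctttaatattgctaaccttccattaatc

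Neither window holds TTGAC, the core of the W-box that WRKY factors bind, or TGACG, the core bound by TGA factors, on either strand. Among the 250-base windows of the 35 members, 19 (54.3%) held TTGAC, against 44.9% of the windows of 27443 protein-coding genes, and 4 (11.4%) held TGACG, against 18.6%. A match or its absence is a description of these letters only. PIP2;2 (AT2G37170, chr2:15613368-15615022, minus strand) and PIP2;3 (AT2G37180, chr2:15617635-15619155, plus strand) are neighbours in the genome and shared 143 windows of 100 bases, 11.5% of the windows of the first and 12.8% of those of the second. An identical stretch, bases 304 to 393 of the first coding sequence and 175 to 264 of the other, shows a part of the shared sequence:
PIP2;2 and PIP2;3: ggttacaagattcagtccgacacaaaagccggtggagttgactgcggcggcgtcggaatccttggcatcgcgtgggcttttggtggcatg
By single reads of 100 bases, the counts of this pair are uncertain to that extent, as are those of NIP2;1, which shared 59 windows (5.41%) with AT2G29870. The reads were paired, and the mate of such a read may lie in sequence that differs. The strand setting of the counting was not given in the sources used here. TIP2;1, NIP2;1, NIP6;1, SIP1;2 and SIP2;1 overlap genes on the opposite strand. The overlaps, summed over partners, were 565, 1462, 26, 653 and 350 bases in that order. Within them, reads of these genes and of their antisense partners cannot be told apart.

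In mock seedlings the most abundant aquaporin transcript per length was TIP1;2 (AT3G26520), a water channel of the tonoplast, with a median of 1017 CPM per kb of exon over 36 mock libraries (range 715.4 to 1393). The most abundant member of PIP2 was PIP2;1 (AT3G53420, 462 CPM per kb), of PIP1 was PIP1;2 (AT2G45960, 332 CPM per kb), of SIP was SIP1;1 (AT3G04090, 69.5 CPM per kb) and of NIP was NIP5;1 (AT4G10380, 16.3 CPM per kb), the boric acid channel of root uptake. TIP2;2 stood at 100.0 and TIP2;3 at 15.8 CPM per kb. The lowest of the 29 was NIP7;1, at 0.181 CPM per kb. The ranges of neighbours in the order of medians overlapped over the 36 mock libraries, except those of SIP2;1 (21.2 to 30.3 CPM per kb) and NIP5;1 (11.2 to 20.7 CPM per kb). The TIP genes made up 40.4% of the summed CPM of the family in mock libraries, PIP2 29.9%, PIP1 26.2%, SIP 2.04% and NIP 1.36%.

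Aquaporin transcripts took up less of the library after NHP at 3 h and 6 h in all 3 genotypes. Summed over the 29 members, the family held between 0.355% and 0.830% of the assigned reads of a library, with a median of 0.596%. At 6 h its share was 0.383, 0.355 and 0.358% in sid2-2 with NHP, against 0.418, 0.418 and 0.425% in sid2-2 mock. In fmo1-1 at 6 h it was 0.396, 0.411 and 0.421% with NHP, against 0.474, 0.498 and 0.477% in mock. In Col-0 at 6 h it was 0.384, 0.369 and 0.410% with NHP, against 0.505, 0.479 and 0.512% in mock. NHP and mock wells did not overlap in any of these 3 comparisons, and the mean share was 13.0% lower in sid2-2, 15.3% lower in fmo1-1 and 22.2% lower in Col-0. At 3 h the mean share was 13.5% lower in sid2-2, 16.3% lower in fmo1-1 and 19.2% lower in Col-0, again with no overlap. In sid2-2 the shares of NHP and mock wells overlapped at 15 min (means 0.600% and 0.586%) and at 30 min (0.655% and 0.676%, with NHP wells at 0.653, 0.664 and 0.649%, the last being the library with the other time tag). In fmo1-1 they did not overlap at 15 min (0.672% with NHP and 0.747% in mock), where the nearest wells were at 0.719 and 0.720%, or at 30 min (0.728% and 0.798%). In Col-0 they did not overlap at 15 min (0.658% with NHP and 0.696% in mock) or at 30 min (0.705% and 0.784%). No test was made of the share.

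**Figure D1:**
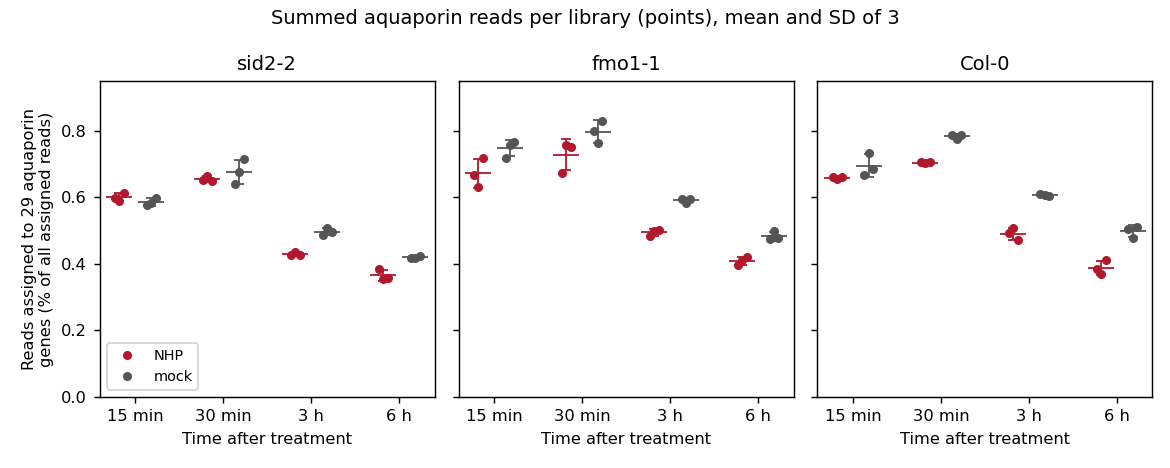
Share of assigned reads held by the 29 aquaporin genes kept, in percent, for each library at each time point, by genotype and treatment, where points are wells, with the mean and SD of 3. The NHP wells sit below the mock wells in all 3 genotypes at 3 h and 6 h, between 0.355 and 0.508% with NHP and between 0.418 and 0.610% in mock.

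Single genes were tested with edgeR's quasi-likelihood test of NHP minus mock, with p-values adjusted by the Benjamini-Hochberg method over all 21042 genes of the fit and a call at an adjusted p below 0.05. At 15 min 2 of 29 members were lower and 1 was higher in sid2-2 (6.90% and 3.45%, against 2.43% lower and 2.45% higher over all genes), 6 were lower in fmo1-1 (20.7%, against 2.66%) and 3 in Col-0 (10.3%, against 1.8%). At 30 min 1 was lower in sid2-2 (3.45%, against 1.15% over all genes), 4 in fmo1-1 (13.8%, against 1.76%) and 2 in Col-0 (6.90%, against 1.24%). At 3 h 16 were lower in sid2-2 (55.2%, against 7.23%), 12 in fmo1-1 (41.4%, against 1.79%) and 13 in Col-0 (44.8%, against 2.18%). At 6 h 14 were lower in sid2-2 (48.3%, against 6.04%), 13 in fmo1-1 (44.8%, against 2.52%) and 13 in Col-0 (44.8%, against 3.79%). None was called higher at 3 h or 6 h, where 5.79% of all genes at 3 h and 4.94% at 6 h were higher in sid2-2, 2.16% and 2.64% in fmo1-1, and 1.69% and 3.03% in Col-0. The median log2 fold change of the members was -0.22 in sid2-2, -0.22 in fmo1-1 and -0.21 in Col-0 at 3 h, and -0.24, -0.12 and -0.18 at 6 h, while that of all genes was between -0.02 and 0.00. At 15 min, 30 min and 3 h no batch held both NHP and mock wells of a genotype where batches were listed (sid2-2 and Col-0), so batch and NHP cannot be told apart at those times. At 6 h the batches of the sid2-2 NHP wells and the sid2-2 mock wells also differed, and in Col-0 only NHP replicate 1 and mock replicate 3 shared one. A fit of the 12 sid2-2 and Col-0 libraries at 6 h with batch as a term therefore takes the Col-0 response from those wells, and adjusts the sid2-2 response by Col-0 NHP replicate 1 against replicates 2 and 3. It called 2 members in sid2-2, TIP2;3 (-1.74) and TIP2;1 (-0.48), and 9 in Col-0, where the same 12 libraries without the term called 14 in each. All other calls in sid2-2 at 6 h were lost with the term, and of the 13 in Col-0 those of PIP1;2 (-0.24, adjusted p = 0.289), PIP1;3 (-0.34, adjusted p = 0.098), PIP2;3 (-0.41, adjusted p = 0.0561) and NIP5;1 (-0.36, adjusted p = 0.0958). The batches of fmo1-1 were not listed. Whole seedlings were sampled, so that fewer cells of a type and less RNA per cell cannot be told apart.

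**Figure D2:**
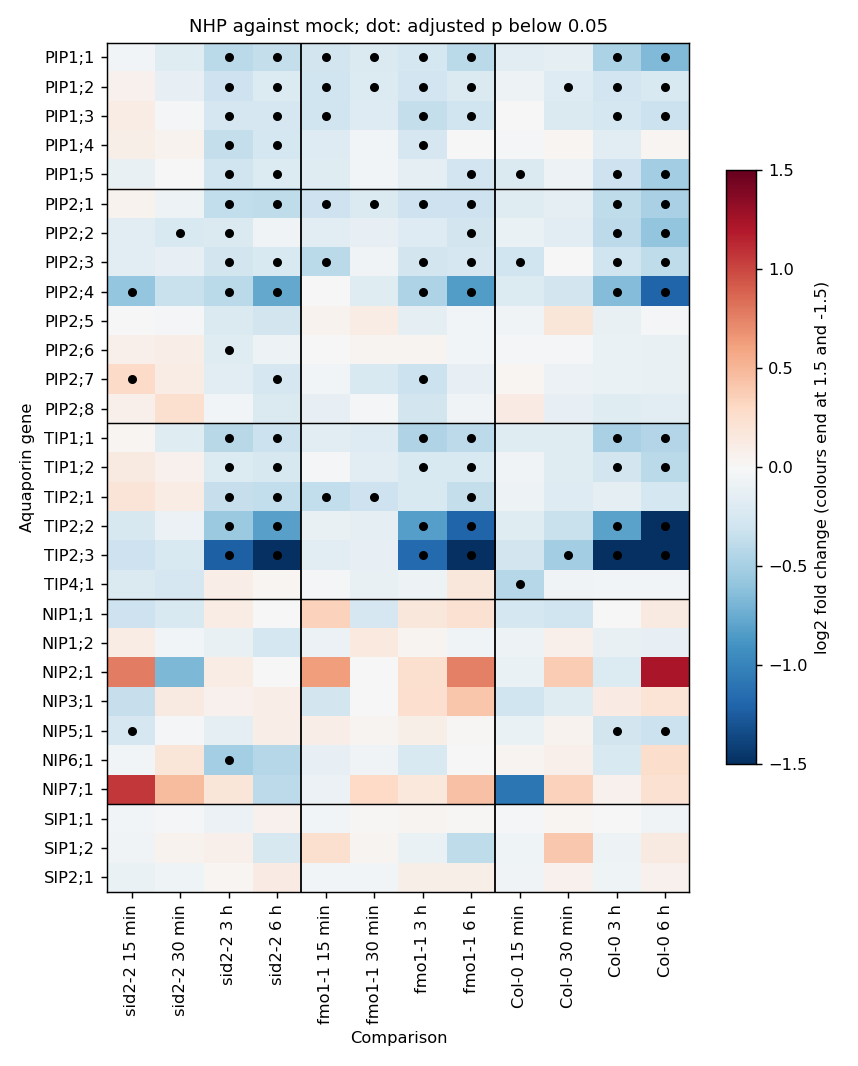
Heat map of log2 fold changes, NHP minus mock, for the 29 aquaporin genes (down the page, by subfamily) in sid2-2, fmo1-1 and Col-0 at the 4 times (across), where marked cells have an adjusted p below 0.05. The marked cells gather at 3 h and 6 h among PIP and TIP genes, and the lowest value is that of TIP2;3 in Col-0 at 6 h (-2.41).

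PIP and TIP genes made up most of the members called lower. Across the 12 responses, 19 members (65.5%, against 17.5% of all genes) were called lower at least once: all 5 PIP1, 6 of 8 PIP2, all 6 TIP kept and 2 of 7 NIP genes, with 0 of 3 SIP genes. At 3 h 10 members (34.5%, against 0.627% of all genes) were lower in all 3 genotypes: every PIP1 gene but PIP1;4 and PIP1;5, 3 PIP2 genes (PIP2;1, PIP2;3 and PIP2;4), and every TIP gene kept but TIP2;1 and TIP4;1. At 6 h these 10 and PIP1;5 were (37.9%, against 1.11%). The other 10 members of the 29 passed the test in no response, namely 2 PIP2 genes, every NIP gene kept but NIP5;1 and NIP6;1, and all SIP genes. PIP2;7 was the member called higher, in sid2-2 at 15 min, with 410.4, 357 and 386 CPM with NHP, against 321, 302 and 326 CPM in mock (0.28 ± 0.07, SE, adjusted p = 0.0167). It was lower there at 6 h (-0.25 ± 0.07, SE, adjusted p = 0.0187).

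TIP2;3, a root tonoplast channel that passes water and ammonia, had the largest change of the family. At 3 h it had 5.20, 4.33 and 2.74 CPM in sid2-2 with NHP, against 7.11, 12.8 and 9.52 CPM in sid2-2 mock. In fmo1-1 at 3 h it had 8.15, 7.76 and 7.46 CPM with NHP, against 15.9, 17.4 and 19.5 CPM in mock. In Col-0 at 3 h it had 7.54, 6.24 and 5.22 CPM with NHP, against 17.3, 21.7 and 15.5 CPM in mock. Every NHP well was below every mock well of its genotype. The log2 fold changes at 3 h were -1.23 ± 0.20 (SE, adjusted p = 1.68e-05) in sid2-2, -1.17 ± 0.16 (SE, adjusted p = 9.88e-07) in fmo1-1 and -1.50 ± 0.17 (SE, adjusted p = 3e-09) in Col-0. They exceed the bound of 1 on the log2 scale in each genotype, where the members past that bound numbered 1 in each and the shares of all genes that fell past it were 0.271%, 0.261% and 0.509%. At 6 h the wells with NHP lay between 2.93 and 4.99 CPM in all genotypes: 3.45, 2.93 and 3.58 CPM in sid2-2, 3.86, 4.99 and 4.79 CPM in fmo1-1 and 3.97, 3.59 and 4.50 CPM in Col-0. The mock wells at 6 h had 10.7, 10.9 and 11.7 CPM in sid2-2, 16.9, 17.1 and 17.7 CPM in fmo1-1 and 22.2, 19.9 and 23.2 CPM in Col-0. The log2 fold changes at 6 h were -1.72 ± 0.20 (SE, adjusted p = 2.75e-09), -1.91 ± 0.18 (SE, adjusted p = 9.93e-12) and -2.41 ± 0.18 (SE, adjusted p = 3.43e-15) in the same order of genotypes.

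At 15 min the same gene passed the test in no genotype, with log2 fold changes of -0.32 in sid2-2, -0.17 in fmo1-1 and -0.28 in Col-0 (adjusted p = 0.282, 0.616 and 0.423, edgeR). At 30 min it was called in Col-0, with 18.2, 17.7 and 17.7 CPM with NHP, against 24.9, 26.3 and 25.9 CPM in mock (-0.52 ± 0.15, SE, adjusted p = 0.0496). That call was lost in each of the 6 fits that left out 1 well, with values between -0.55 and -0.51, as was the other call there, PIP1;2 (-0.21 to -0.17). At 30 min it missed the threshold in sid2-2 (-0.23, adjusted p = 0.63) and in fmo1-1 (-0.13, adjusted p = 0.753).

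TIP2;2, its close relative in the root tonoplast, moved the same way at a higher level. At 6 h it had 46.97, 38.4 and 42.01 CPM in sid2-2 with NHP, against 72.1, 73.7 and 77.9 CPM in sid2-2 mock. In fmo1-1 it had 42.5, 47.6 and 41.2 CPM with NHP, against 104, 105 and 93.2 CPM in mock. In Col-0 it had 45.7, 34.96 and 45.5 CPM with NHP, against 119, 119 and 130.1 CPM in mock. The NHP wells of all genotypes lay together between 34.96 and 47.6 CPM, below every mock well, and the mock wells of sid2-2 were below those of fmo1-1 and Col-0. The log2 fold changes at 6 h were -0.81 ± 0.12 (SE, adjusted p = 1.12e-06) in sid2-2, -1.20 ± 0.12 (SE, adjusted p = 2.56e-11) in fmo1-1 and -1.54 ± 0.12 (SE, adjusted p = 8.39e-15) in Col-0. At 3 h they were -0.56 ± 0.11 (SE, adjusted p = 0.000598), -0.83 ± 0.11 (SE, adjusted p = 3e-07) and -0.80 ± 0.11 (SE, adjusted p = 6.72e-07), again without overlap of wells. It was called in no genotype at 15 min or 30 min, where its log2 fold changes lay between -0.33 and -0.09. With batch as a term at 6 h, its value was -1.51 in Col-0, still called, and -0.61 in sid2-2 (adjusted p = 0.0938).

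PIP2;4 (AT5G60660), a plasma membrane channel known mainly from roots, was the third member to fall by more than 1 on the log2 scale. At 6 h it had 15.3, 12.9 and 14.6 CPM in sid2-2 with NHP, against 28.9, 22.6 and 21.7 CPM in mock (-0.77 ± 0.13, SE, adjusted p = 2.48e-05). In fmo1-1 it had 21.02, 24.2 and 24.8 CPM with NHP, against 38.5, 44.6 and 41.9 CPM in mock (-0.84 ± 0.12, SE, adjusted p = 8.93e-07). In Col-0 it had 21.04, 17.2 and 24.05 CPM with NHP, against 46.03, 44.7 and 53.1 CPM in mock (-1.20 ± 0.12, SE, adjusted p = 5e-11). Wells with NHP and mock wells did not overlap at 6 h in any genotype, and the mock level in sid2-2 was near the NHP level of the other genotypes. At 6 h, members below -1 on the log2 scale numbered 1 in sid2-2 (0.599% of all genes), 2 in fmo1-1 (0.523%) and 3 in Col-0 (0.77%). It was also lower at 3 h in sid2-2 (-0.40), fmo1-1 (-0.47) and Col-0 (-0.65), and at 15 min in sid2-2, with 20.5, 22.99 and 23.02 CPM with NHP, against 32.8, 38.8 and 28.2 CPM in mock (-0.58 ± 0.12, SE, adjusted p = 0.0032). The 15 min call was lost without sid2-2 mock replicate 2 at 15 min (adjusted p = 0.0693). At 3 h the call in sid2-2 was lost without any 1 of its wells except NHP replicate 1, with values between -0.42 and -0.30, and that in fmo1-1 without mock replicate 3 or without NHP replicate 3 (-0.43 each, adjusted p = 0.0502 and 0.072). With batch as a term at 6 h it kept its call in Col-0 (-1.34) and not in sid2-2 (-0.73, adjusted p = 0.306).

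**Figure D3:**
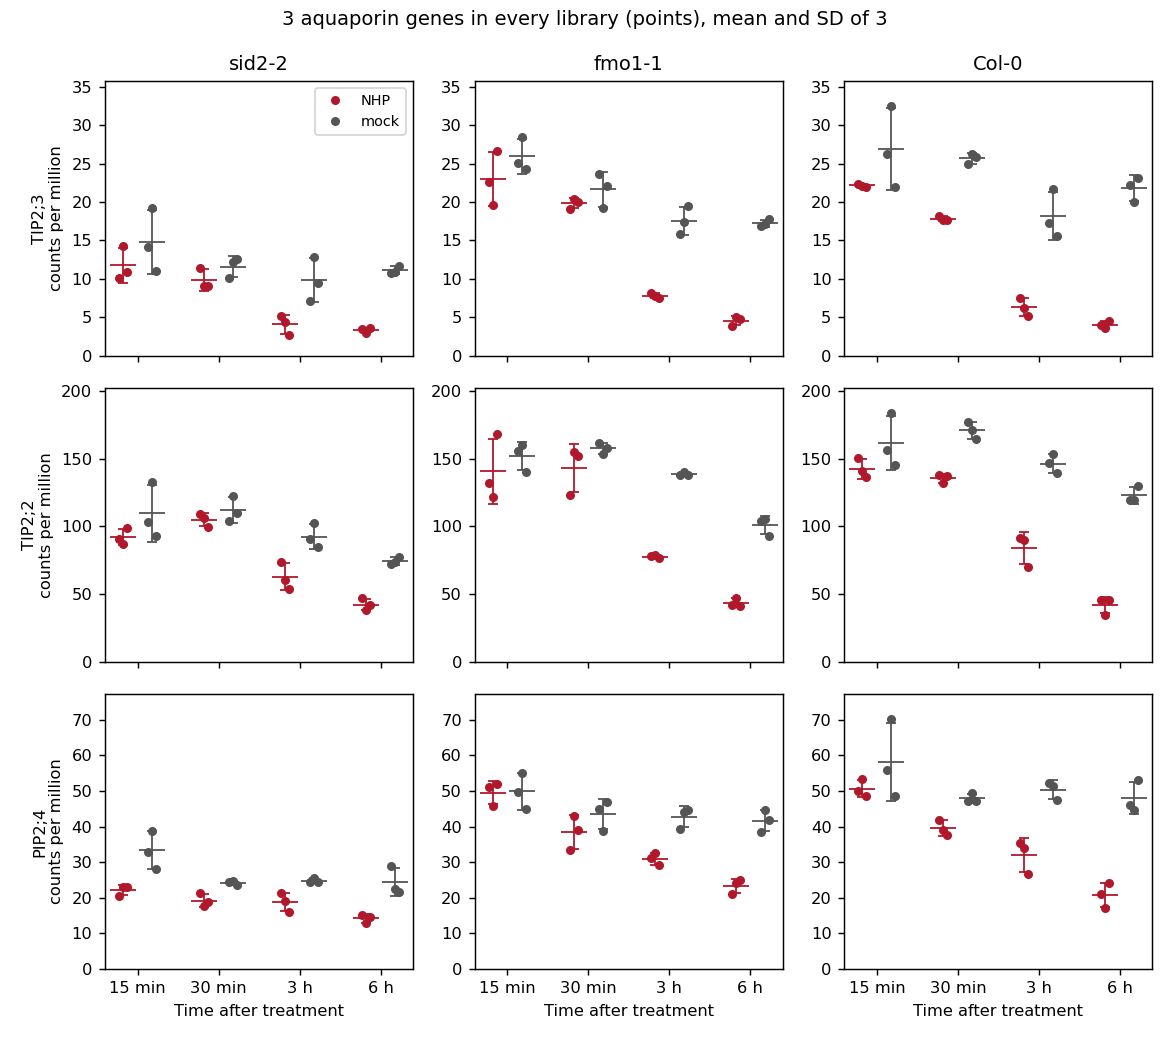
CPM of the 3 members with the largest falls in each library over time, for sid2-2, fmo1-1 and Col-0, where points are wells and bars are the mean and SD of 3 for NHP and for mock. Wells of NHP and mock are apart for all 3 genes at 6 h, where TIP2;3 lies between 2.93 and 4.99 CPM with NHP and between 10.7 and 23.2 CPM in mock.

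The abundant plasma membrane channels fell by smaller amounts. PIP2;1, a channel for water and hydrogen peroxide, had 298, 271 and 259.7 CPM in sid2-2 with NHP at 6 h, against 346, 356 and 378 CPM in mock (-0.38 ± 0.06, SE, adjusted p = 5.15e-06). It had 273, 292 and 297 CPM in fmo1-1 with NHP, against 344, 366 and 359 CPM in mock (-0.31 ± 0.06, SE, adjusted p = 0.000301). In Col-0 this channel had 270.5, 243 and 280.0 CPM with NHP, against 374, 359 and 381 CPM in mock (-0.49 ± 0.06, SE, adjusted p = 8.81e-09). The wells did not overlap in any genotype at 6 h, nor at 3 h, where the log2 fold changes were -0.37 in sid2-2, -0.31 in fmo1-1 and -0.38 in Col-0, all called. It was also called lower in fmo1-1 at the early times, at 15 min by -0.31 ± 0.06 (SE, adjusted p = 0.000395) and at 30 min by -0.22 ± 0.06 (SE, adjusted p = 0.0329), and the second call did not hold when replicate 1 or 3 of mock or of NHP was left out (values between -0.23 and -0.17). The difference from Col-0 passed the test at neither time.

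PIP1;1 (AT3G61430), an abundant plasma membrane channel, had 214, 211 and 201 CPM in sid2-2 with NHP at 6 h, against 261, 275 and 265 CPM in mock (-0.36 ± 0.05, SE, adjusted p = 1.32e-06). In fmo1-1 it had 221, 251 and 231 CPM with NHP, against 312, 308 and 314 CPM in mock (-0.41 ± 0.05, SE, adjusted p = 3.85e-08). In Col-0 it had 207, 194 and 208 CPM with NHP, against 325, 323 and 319 CPM in mock (-0.67 ± 0.05, SE, adjusted p = 2.92e-15). No well with NHP reached a mock well of its genotype. At 3 h PIP1;1 changed by -0.41 ± 0.05 in sid2-2, -0.26 ± 0.05 in fmo1-1 and -0.47 ± 0.05 in Col-0 (log2, SE), all called, and in fmo1-1 it was also lower at 15 min (-0.28) and 30 min (-0.22, a call lost without mock replicate 3 or NHP replicate 1). PIP1;2, known for carrying carbon dioxide as well as water, had 356, 364 and 371 CPM in sid2-2 with NHP at 3 h, against 452, 464 and 441 CPM in mock (-0.31 ± 0.06, SE, adjusted p = 4.42e-05). Its values at 3 h in fmo1-1 were 412, 408 and 410.2 CPM with NHP, against 527, 479 and 498 CPM in mock (-0.29 ± 0.05, SE, adjusted p = 0.000214). In Col-0 at 3 h it had 428, 442 and 413 CPM with NHP, against 527, 519 and 514 CPM in mock (-0.28 ± 0.05, SE, adjusted p = 0.000309). The wells were apart in all 3 genotypes at 3 h and at 6 h, where it changed by -0.21 in sid2-2, -0.22 in fmo1-1 and -0.23 in Col-0, all called. In fmo1-1 PIP1;2 was also called lower at 15 min (-0.30) and at 30 min (-0.21). The call at 30 min was lost without mock replicate 3 or NHP replicate 1. The calls at 6 h were lost in sid2-2 without mock replicate 3 (-0.18, adjusted p = 0.0736) or NHP replicate 2 (-0.19, adjusted p = 0.0566), in fmo1-1 without mock replicate 2 (-0.16, adjusted p = 0.159) or NHP replicate 1 (-0.20, adjusted p = 0.0629), and in Col-0 without NHP replicate 2 (-0.20, adjusted p = 0.0539). With batch as a term they were lost in sid2-2 (-0.21, adjusted p = 0.348) and in Col-0.

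TIP1;2, the most abundant aquaporin transcript, had 973, 853 and 871 CPM in sid2-2 with NHP at 6 h, against 1049, 1079.6 and 1068 CPM in mock (-0.24 ± 0.06, SE, adjusted p = 0.00276). In fmo1-1 it had 809, 819.8 and 795 CPM with NHP, against 923, 976 and 949 CPM in mock (-0.23 ± 0.06, SE, adjusted p = 0.00777). In Col-0 it had 718, 722 and 800.4 CPM with NHP, against 987, 948 and 1029 CPM in mock (-0.40 ± 0.06, SE, adjusted p = 5.37e-07). The groups were apart in each genotype, and the call in fmo1-1 was lost without fmo1-1 mock replicate 2 at 6 h (adjusted p = 0.0599). At 3 h it changed by -0.20 in sid2-2, -0.23 in fmo1-1 and -0.27 in Col-0, all called. The call in sid2-2 did not hold when mock replicate 1 or 2 or NHP replicate 3 was left out (-0.18 to -0.17), and that in fmo1-1 without mock replicate 1 or NHP replicate 1 (-0.22 to -0.19). Its tonoplast relative TIP1;1 (AT2G36830) changed by -0.32, -0.40 and -0.44 in the same order at 6 h, all called. TIP2;1, an ammonia-permeable channel of the tonoplast, was called lower at 6 h in sid2-2 (-0.36) and fmo1-1 (-0.36), and its value in Col-0 was -0.27 (adjusted p = 0.055). TIP4;1, a root channel, was called once, in Col-0 at 15 min (-0.43 ± 0.10, SE, adjusted p = 0.00403), with 17.05, 14.8 and 14.2 CPM with NHP, against 21.8, 21.8 and 18.95 CPM in mock.

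Of the remaining PIP genes, PIP1;3 was called lower in all 3 genotypes at 3 h and 6 h, with log2 fold changes between -0.36 and -0.25. PIP2;3 was likewise lower in all 3 genotypes at both times (-0.38 to -0.23), and at 15 min in fmo1-1 (-0.41) and Col-0 (-0.30). PIP1;5 was lower in all genotypes at 6 h (-0.21 in sid2-2, -0.29 in fmo1-1 and -0.52 in Col-0), and with batch as a term its value in sid2-2 was -0.02 (adjusted p = 0.968). PIP1;4, known to import hydrogen peroxide during pathogen defence, was lower in sid2-2 at 3 h (-0.36 ± 0.06, SE, adjusted p = 6.25e-05) and 6 h (-0.27) and in fmo1-1 at 3 h (-0.25), and had -0.15 and 0.03 in Col-0 at 3 h and 6 h, neither called. PIP2;6 was called once, in sid2-2 at 3 h (-0.18), and PIP2;7 at 3 h in fmo1-1 (-0.32) beside its calls in sid2-2. PIP2;5 and PIP2;8, which were less abundant, lay between -0.28 and 0.24 in all 12 responses with no call.

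Among the boric acid channels, NIP5;1 had 30.9, 30.1 and 31.2 CPM in Col-0 with NHP at 6 h, against 35.4, 40.3 and 39.7 CPM in mock (-0.32 ± 0.07, SE, adjusted p = 0.000829), a call lost with batch as a term. In Col-0 at 3 h it was also lower (-0.28 ± 0.07, SE, adjusted p = 0.00624), a call lost without Col-0 NHP replicate 3 at 3 h (adjusted p = 0.058). It was not called at 3 h or 6 h in sid2-2 (-0.14 and 0.10) or in fmo1-1 (0.09 and 0.02), and at 15 min it was lower in sid2-2 (-0.25 ± 0.07, SE, adjusted p = 0.0269), a call that did not hold when mock replicate 2 or NHP replicate 1 or 2 was left out (values between -0.25 and -0.21). NIP6;1, which distributes boron to young shoot tissue, was lower in sid2-2 at 3 h, with 5.33, 5.54 and 5.82 CPM with NHP, against 8.01, 7.98 and 7.86 CPM in mock (-0.51 ± 0.13, SE, adjusted p = 0.00442). The other NIP genes, with NIP1;1 and NIP1;2 as the most abundant, passed in no response. NIP2;1, with a mean of 1.09 CPM over all libraries, lay between -0.67 and 1.22. The latter, in Col-0 at 6 h, was the highest value of any member there. Its lowest adjusted p in any response was 0.0546 (edgeR). NIP7;1, with a mean of 0.338 CPM, lay between -1.09 and 1.06. Of the boron exporters that work with these channels, 6 of 7 were tested. BOR1 was lower in Col-0 at 3 h (-0.21) and BOR3 higher in sid2-2 at 15 min (0.22). BOR5 was higher in fmo1-1 at 6 h, with 0.656, 1.01 and 0.537 CPM with NHP, against 0.303, 0.435 and 0.116 CPM in mock (1.15 ± 0.37, SE, adjusted p = 0.049). BOR6 had 0 reads in every library.

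SIP1;1, of the endoplasmic reticulum, passed the test in no response. At 6 h it had 85.1, 87.3 and 87.3 CPM in sid2-2 with NHP, against 76.98, 87.5 and 84.6 CPM in mock. In fmo1-1 it had 93.9, 91.2 and 88.98 CPM with NHP, against 90.7, 93.1 and 86.6 CPM in mock. In Col-0 it had 87.95, 83.8 and 90.2 CPM with NHP, against 89.1, 93.1 and 89.1 CPM in mock. The wells overlapped in all 3 genotypes, and its 12 log2 fold changes lay between -0.09 and 0.06 with a standard error of 0.04. SIP2;1 lay between -0.10 and 0.13 and SIP1;2 between -0.38 and 0.40, with no call.

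Whether a mutant responded differently was tested as the NHP response of the mutant minus that of Col-0. In fmo1-1 no member was called at any time (the shares of all genes called, in the order of times, were 0.181%, 0%, 0.00475% and 0%), and DESeq2 also called 0. At an unadjusted p below 0.05 there were 6, 0, 4 and 9 of 29 members, against 9.12%, 5.57%, 6.62% and 5.08% of all genes. In sid2-2 no member was called at 15 min, 30 min or 3 h (0%, 0.204% and 2.17% of all genes), and DESeq2 called 0 at these times. At an unadjusted p below 0.05 there were 7, 3 and 2 of 29, against 9.5%, 7.51% and 16.4% of all genes. At 6 h 4 of 29 (13.8%) were called in sid2-2, against 1.06% of all genes, all with a higher log2 fold change in sid2-2 than in Col-0 (10 of 29 at an unadjusted p below 0.05, against 14.3%). The largest was TIP2;2, at 0.73 ± 0.16 (SE, adjusted p = 0.0147). PIP2;2, a channel of root water uptake, had 262, 251 and 261 CPM in sid2-2 with NHP, against 256, 275 and 269 CPM in sid2-2 mock, while in Col-0 it had 269, 231 and 261 CPM with NHP, against 367, 382 and 395 CPM in mock. Its wells overlapped in sid2-2 and were apart in Col-0, and the difference of the responses was 0.54 ± 0.09 (SE, adjusted p = 0.000467). In fmo1-1 it had 266, 299 and 287 CPM with NHP, against 352, 340.1 and 339.6 CPM in mock (-0.28 ± 0.06, SE, adjusted p = 0.00134). NIP5;1 differed by 0.42 ± 0.10 (SE, adjusted p = 0.0148) and PIP1;1 by 0.31 ± 0.08 (SE, adjusted p = 0.0254). Of these 4, TIP2;2 and PIP1;1 were called lower in sid2-2 as well. In mock seedlings at 6 h the levels of TIP2;2 (-0.72), PIP2;2 (-0.52) and PIP1;1 (-0.27) were lower in sid2-2 than in Col-0, each called. TIP2;3 differed by 0.69 ± 0.28 (SE, adjusted p = 0.228) and PIP2;4 by 0.43 ± 0.18 (SE, adjusted p = 0.242), neither called. With batch as a term, which rests on the single Col-0 wells named before, PIP1;1 lost its call (0.33, adjusted p = 0.0708) and the other 3 kept theirs (0.50 to 0.90). The comparisons of both mutants share the Col-0 wells. PIP2;2 kept its call in all 12 fits that left out 1 well (0.48 to 0.58). TIP2;2 lost it without Col-0 NHP replicate 2 (0.62, adjusted p = 0.0811). NIP5;1 lost it without Col-0 NHP replicate 2, Col-0 mock replicate 3 or sid2-2 NHP replicate 3 (0.40 to 0.41), and PIP1;1 in 6 of 12 fits (0.28 to 0.32). Without Col-0 NHP replicate 2 at 6 h 1 member was called, and without Col-0 mock replicate 3 at 6 h 2 were.

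The single call in sid2-2 at 30 min was PIP2;2, with 245, 251 and 251 CPM with NHP, against 288, 300.1 and 286 CPM in mock (-0.23 ± 0.06, SE, adjusted p = 0.0307). Without NHP replicate 3, the library whose time tag disagreed with its title, PIP2;2 stood at -0.23 (adjusted p = 0.0889) and 0 members were called, and the call was lost without any other of the 6 wells too. Without the same library TIP2;3 in sid2-2 at 30 min stood at -0.18, and TIP2;2 at -0.06, the difference from Col-0 again called 0 members, and all 6 root hair markers were again called lower (-1.24 to -0.91). Counts at 3 h and 6 h depended less on single wells. The count in sid2-2 at 6 h was 8 without NHP replicate 2 and 14 with it, that in fmo1-1 at 6 h was 8 without mock replicate 2 and 13 with it, and the others at 3 h and 6 h stayed between 9 and 16 with any 1 well left out.

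Markers of other cells moved with NHP beside the aquaporins. All 6 root hair markers (COBL9, EXPA7, EXPA18, PRP3, LRX1 and ADF8) were called lower in all 12 responses, with single values between -1.51 and -0.38. Their summed level was 85.3 to 126 CPM in sid2-2 with NHP, against 167 to 243 CPM in sid2-2 mock. In fmo1-1 it was 111 to 180 CPM with NHP, against 253 to 369 CPM in mock. In Col-0 it was 111 to 160 CPM with NHP, against 254 to 359 CPM in mock. The sums with NHP lay below those in mock in every genotype, and none of the markers was at 0 reads in any library. PRP3, a cell wall protein of root hairs, had 72.3, 70.4 and 59.9 CPM in Col-0 with NHP at 15 min, against 176, 181 and 143 CPM in mock (-1.30 ± 0.12, SE, adjusted p = 2.5e-11), a time at which none of the 3 members with the largest falls passed the test in fmo1-1 or Col-0. In Col-0 the median of the 6 markers was -0.97, -1.16, -1.17 and -1.29 in the order of times, while TIP2;3 had -0.28, -0.52, -1.50 and -2.41. Of 7 endodermis markers, CASP4, CASP2 and CASP1 were called lower in Col-0 at 6 h, CASP1 also in Col-0 at 30 min and sid2-2 at 15 min, and CASP2 in fmo1-1 at 30 min. At 6 h their summed level was 53.4 to 59.9 CPM in sid2-2 with NHP, against 52.1 to 57.5 CPM in mock, 55.3 to 64.9 CPM in fmo1-1 with NHP, against 67.6 to 78.2 CPM in mock, and 59.1 to 71.3 CPM in Col-0 with NHP, against 72.5 to 82.7 CPM in mock. These sums overlapped in sid2-2 and were lower with NHP, without overlap, in fmo1-1 and Col-0. At 3 h they overlapped in all 3 genotypes. They were also apart in sid2-2 at 15 min (46.5 to 53.1 CPM with NHP, against 58.4 to 60.9 CPM in mock) and 30 min (42.9 to 48.2 CPM, against 52.3 to 59.4 CPM), and in Col-0 at 30 min (70.5 to 77.1 CPM, against 79.5 to 85.5 CPM). Of the other lists, the green shoot markers LHCB1.1, LHCB2.1 and RCA were lower in sid2-2 at 3 h and 6 h (-0.56 to -0.20), LHCB1.1 in fmo1-1 at 6 h and LHCB2.1 in fmo1-1 at 3 h and 6 h, and none in Col-0. The guard cell markers FAMA (-0.56) and MYB60 (-0.57) were lower in sid2-2 at 3 h, and FAMA also at 6 h (-0.42). In the stele list PHO1 was higher in sid2-2 at 3 h (0.32) and SKOR lower in fmo1-1 at 6 h (-0.48). The part of these cell types in the aquaporin values was not tested.

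**Figure D4:**
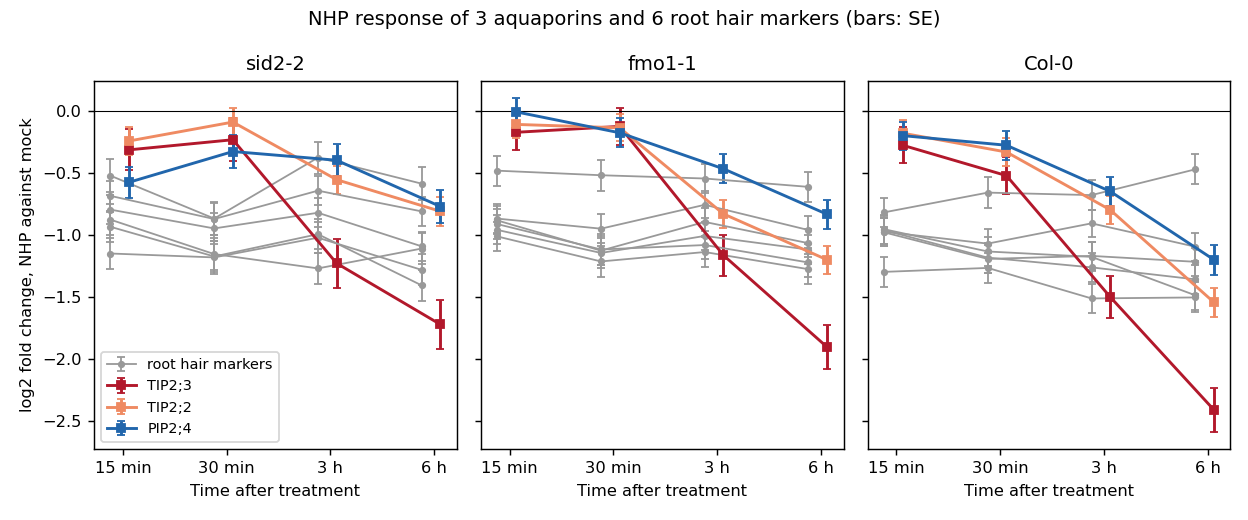
Log2 fold changes, NHP minus mock, of 6 root hair markers and of the 3 aquaporins with the largest falls, with SE, at each of the 4 times, for sid2-2, fmo1-1 and Col-0. The markers are low from 15 min on (between -1.51 and -0.38 over all responses), whereas TIP2;3 reaches -1.72, -1.91 and -2.41 at 6 h.

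Without NHP, sid2-2 seedlings had lower levels of many aquaporins than Col-0 seedlings, and edgeR called no member between fmo1-1 and Col-0. In mock sid2-2 minus mock Col-0, 14 of 29 members were lower and 1 higher at 15 min (48.3% and 3.45%, against 13.9% lower and 17.5% higher over all genes). At 30 min 10 were lower and 2 higher (34.5% and 6.90%, against 12.3% and 13.3%). At 3 h 15 were lower and 2 higher (51.7% and 6.90%, against 16.4% and 20.2%), and at 6 h 12 were lower and 2 higher (41.4% and 6.90%, against 12.6% and 18.8%). In mock fmo1-1, edgeR called 0 members at every time (0.561%, 0.299%, 0.0665% and 0.0713% of all genes), with 7, 1, 3 and 6 of 29 at an unadjusted p below 0.05 (11.2%, 7.73%, 7.86% and 6.58% of all genes), and DESeq2 called 1, TIP2;1 at 15 min (0.34, adjusted p = 0.0208).

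Plates held a single genotype. Mock wells of sid2-2 and Col-0 were listed in 1 batch at 15 min and in different batches at 30 min and 3 h, where genotype and batch cannot be told apart, and at 6 h Col-0 mock replicate 3 alone shared the batch of sid2-2. The sid2-2 difference was called lower at all 4 times for 10 members (34.5%, against 4.16% of all genes): every TIP gene kept but TIP1;2 and TIP2;1, and PIP1;1, PIP1;3, PIP2;2, PIP2;4, NIP1;1 and SIP1;2. TIP2;3 had 14.1, 19.3 and 10.96 CPM in mock sid2-2 at 15 min, against 26.2, 32.5 and 21.9 CPM in mock Col-0 (-0.87 ± 0.15, SE, adjusted p = 1.03e-05). PIP2;4 had 24.3, 25.6 and 24.5 CPM in mock sid2-2 at 3 h, against 52.4, 51.5 and 47.4 CPM in mock Col-0 (-1.02 ± 0.12, SE, adjusted p = 8.65e-10). NIP1;1, which admits arsenite into roots, had 13.7, 14.6 and 15.3 CPM in mock sid2-2 at 15 min, against 32.4, 28.8 and 27.8 CPM in mock Col-0 (-1.03 ± 0.14, SE, adjusted p = 1.71e-07). The wells of the genotypes were apart in these 3 cases. SIP1;2 had 2.87, 2.80 and 2.49 CPM in mock sid2-2 at 6 h, against 6.11, 6.52 and 5.34 CPM in mock Col-0 (-1.12 ± 0.16, SE, adjusted p = 1.63e-07), and it was called in no NHP response. The 3 members called higher at some time were PIP2;6 (at 30 min, 3 h and 6 h, up to 0.25), PIP1;4 (at the same times, up to 0.19) and NIP5;1 (at 15 min, 0.18). Another 9 members, the abundant PIP2;1 and TIP1;2 among them, were called at no time.

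Root and shoot markers also differed between mock sid2-2 and mock Col-0. All 6 root hair markers were lower at each of the 4 times, with medians of -0.57, -0.56, -0.53 and -0.43, and 4 to 5 of 7 endodermis markers were lower. Of 5 green shoot markers, 4 were higher at 15 min and 5 at each later time, with a summed level of 22064 to 37460 CPM in mock sid2-2, against 14076 to 26740 CPM in mock Col-0. The root endodermis sums were 52.1 to 60.9 CPM in mock sid2-2, against 71.2 to 89.3 CPM in mock Col-0. In mock fmo1-1 none of these markers was called at any time. Their part in the aquaporin difference was not tested.

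**Figure D5:**
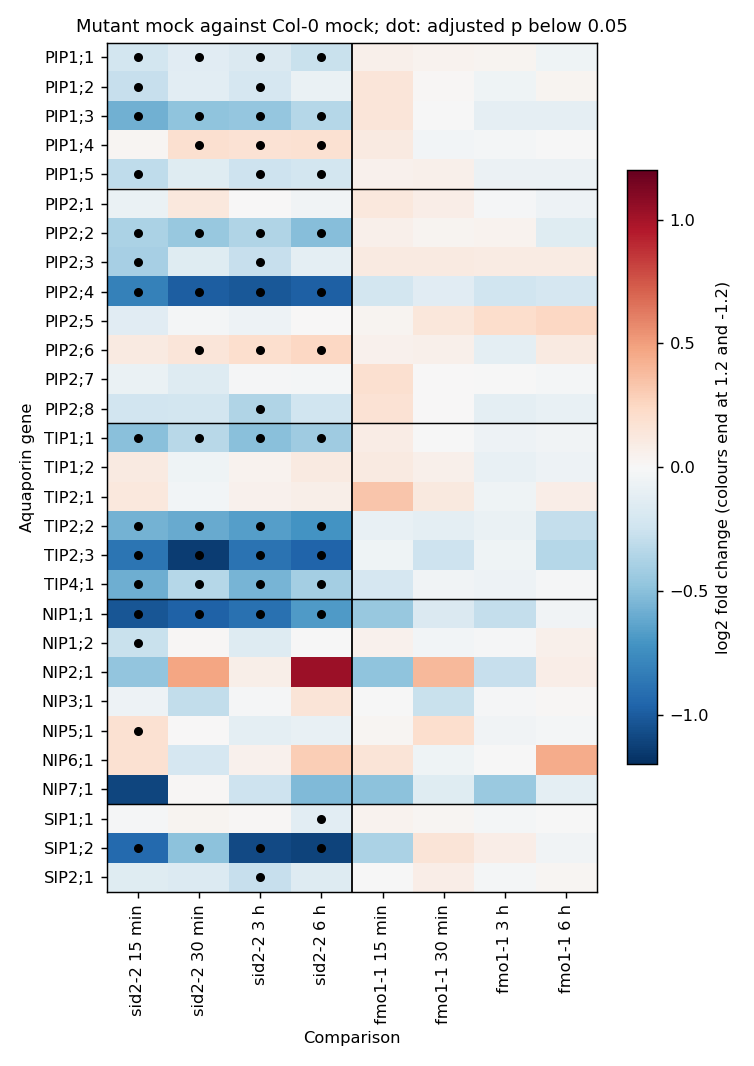
Heat map of log2 fold changes between mock seedlings, sid2-2 minus Col-0 and fmo1-1 minus Col-0, for the 29 aquaporin genes (down the page) at the 4 times (across), where marked cells have an adjusted p below 0.05. The marked cells all lie in the sid2-2 columns, where TIP2;3 ranges between -1.14 and -0.87 and PIP2;4 between -1.02 and -0.81.

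Mock levels moved over the hours of the experiment too, which set the level that NHP was compared with at each time. Averaged over the 3 genotypes, 10 members were higher and 3 lower at 30 min than at 15 min (over all genes 14.8% higher and 16.6% lower). At 3 h 5 were higher and 15 lower than at 30 min (24.5% and 23.3%), and at 6 h 3 were higher and 18 lower than at 3 h (17.3% and 16.1%). PIP2;1 had 374, 359 and 381 CPM in mock Col-0 at 6 h, against 1073, 1104 and 1116 CPM at 30 min, and its mean change over the genotypes was -0.85 ± 0.04 (SE, adjusted p = 1.09e-30) at 3 h against 30 min and -0.82 ± 0.04 (SE, adjusted p = 3.73e-30) at 6 h against 3 h. PIP2;3 changed by -0.95 ± 0.04 (SE, adjusted p = 3.36e-32) at 3 h against 30 min. TIP2;3 was among the 15 members lower at 3 h than at 30 min, and was not called at 6 h against 3 h. Its mock level in Col-0 at 6 h was 22.2, 19.9 and 23.2 CPM, against 17.3, 21.7 and 15.5 CPM at 3 h, with overlapping wells. NIP6;1 changed by -1.02 ± 0.08 (SE, adjusted p = 3.11e-18) at 6 h against 3 h, and NIP5;1 by 0.53 ± 0.04 (SE, adjusted p = 2.62e-18) at 3 h against 30 min. SIP1;2 was higher at both later steps (0.40 ± 0.10 (SE, adjusted p = 0.000926) and 0.40 ± 0.10 (SE, adjusted p = 0.000621)). Time after the medium change, time of day and batch cannot be told apart in these steps.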

How the data were processed

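Poly(A) RNA of whole seedlings had been sequenced as paired-end reads, and the authors deposited 1 table of gene counts, whole reads per gene and library, not normalised. Per the labels the reads were checked with FastQC and related to TAIR10, and the study used CLC Genomics Workbench; the counting settings and strand handling were not given in the sources used here. Libraries were grouped by their titles, and 0 columns were left unmapped.

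The 72 libraries were fitted together in edgeR 4.0.16 (R 4.3.3, limma 3.58.1) as 24 groups of 3, with TMM scaling, filterByExpr (minimum count 10, minimum total 15), a prior count of 2 and a robust quasi-likelihood fit of 21042 of 27655 genes. CPM were computed with TMM-scaled library sizes, from 19618319 to 28382977 assigned reads per library (median 23373900). Those of ICS1 and FMO1 used the assigned reads without TMM scaling. Adjusted p-values are Benjamini-Hochberg over all genes of the fit, and a call is an adjusted p below 0.05. Standard errors are the absolute log2 fold change over the square root of F. After the main fit, the test of the NHP response was also run on counts simulated from the Col-0 libraries at 6 h alone. The differences between genotypes were not simulated. Alternatives were DESeq2 1.42.0 size factors and tests, no count filter, fits of 48 or 6 libraries, a replicate block, a batch term at 6 h, a fold bound of 1 and leaving out each well; the fit of the 12 libraries at 6 h without the batch term was added after seeing the data. Exact permutation tests of 3 against 3 wells cannot reach the threshold and were not used. Counting error was not measured apart from the spread between wells. It weighs most on genes of few reads, such as those under 1 CPM.

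Sequences were read from RefSeq TAIR10.1 with biopython 1.88, in Python 3.11.15; all 35 members matched by gene ID, and CPM per kb used its exon lengths. The members and gene lists were chosen with earlier results of these data known. Genes given with full values were those called beyond 1 on the log2 scale in an NHP response, those called for a different response and the most abundant of each subfamily; the rest are given by ranges and counts, with single wells of PIP2;7, TIP4;1, NIP6;1, NIP1;1, SIP1;2, PRP3 and BOR5 added.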

Additional observations from a re-analysis of the deposited data

Results flagged for a closer look

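At 6 h 4 aquaporins responded differently to NHP in sid2-2 than in Col-0 by the edgeR test of the difference itself, which compares the response of sid2-2 with that of Col-0. TIP2;2 differed by 0.73 ± 0.16 (SE, adjusted p = 0.0147), with a response of -0.81 in sid2-2 and -1.54 in Col-0. PIP2;2 differed by 0.54 ± 0.09 (SE, adjusted p = 0.000467), with -0.05 in sid2-2 and -0.59 in Col-0. NIP5;1 differed by 0.42 ± 0.10 (SE, adjusted p = 0.0148), with 0.10 in sid2-2 and -0.32 in Col-0. PIP1;1 differed by 0.31 ± 0.08 (SE, adjusted p = 0.0254), with -0.36 in sid2-2 and -0.67 in Col-0. Of the 12 fits that left out 1 well, PIP2;2 kept its call in all. TIP2;2 lost its call in 1 fit, NIP5;1 in 3 and PIP1;1 in 6. With batch as a term at 6 h, which rests on single Col-0 wells, TIP2;2, PIP2;2 and NIP5;1 were called again, PIP1;1 was not, and PIP1;5 and TIP2;3 were called in addition. Groups of 3 wells are too small for a search for single wells that stand apart.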

How the results depend on the processing

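Replicate numbers did not pair the wells: 1 of 36 same-numbered pairs had a correlation over 0.1 (range -0.0792 to 0.105), and 16 of 36 wells correlated best with their own number. With the replicate block 2 members were called in Col-0 at 15 min, 3 in Col-0 at 30 min and 6 in fmo1-1 at 30 min, and all 63 calls of the genes given in full were kept. A bound of 1 on the log2 scale left 0, 0, 1 and 1 members in sid2-2, 0, 0, 1 and 2 in fmo1-1 and 0, 0, 1 and 3 in Col-0, in the order of times. Fits of the 6 libraries of a comparison called 1 and 3 members in sid2-2 at 15 min and 30 min, 0 in fmo1-1 at 30 min, and 6 and 4 in Col-0 at 15 min and 30 min with edgeR, and 2 in sid2-2 at 30 min, 2 in fmo1-1 at 30 min, and 5 and 6 in Col-0 with DESeq2. DESeq2 on 72 libraries called 2 in sid2-2 at 30 min and 1 in mock fmo1-1. Col-0 at 30 min had 0 with DESeq2 size factors, 1 without the count filter and 1 in the fit of 48 libraries. The batch term left 2 in sid2-2 at 6 h; over all genes it called 293 in sid2-2 and 324 in Col-0, against 2219 and 1507 in the same 12 libraries without it. With 1 well left out, counts were 0 to 3, 0, 11 to 16 and 8 to 15 in sid2-2, 4 to 9, 0 to 5, 9 to 13 and 8 to 13 in fmo1-1, and 1 to 3, 0 to 1, 10 to 13 and 12 to 15 in Col-0 in the order of times, 1 to 6 for a different response in sid2-2 over the 4 times and 0 in fmo1-1, 54 to 60 for mock sid2-2 and 0 to 1 for mock fmo1-1. Of 850 alternative values of the 63 calls, 767 stayed past the threshold, 83 did not and 0 changed direction; the cause was not tested. Depth limits most the members under 1 CPM, NIP7;1 among them.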

Other observations

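Of 5 ammonium transporters tested, which share a substrate with the TIP2 channels, none was lower in any of the 12 responses. Of all genes, 17.5% were lower in at least 1, a share at which 5 genes hold few calls or none. AMT1;1, a root ammonium uptake transporter, was higher at 3 h and 6 h in sid2-2 (0.29 and 0.35), at 3 h and 6 h in fmo1-1 (0.25 and 0.26) and at 3 h in Col-0 (0.32), by the edgeR calls. AT4G13505 overlaps AMT1;1 on the opposite strand over 1709 bases, and reads of the overlap cannot be told apart here. AMT2 was higher in sid2-2 at 3 h and 6 h (0.40 and 0.33) and in Col-0 at 6 h (0.34). Over all genes, 5.79% at 3 h and 4.94% at 6 h were higher in sid2-2. These shares were 2.16% and 2.64% in fmo1-1, and 1.69% and 3.03% in Col-0. Of 7 proton pump genes, which energise the plasma membrane and the tonoplast, VHA-a3 alone was called, in Col-0 at 3 h (-0.15), where 2.18% of all genes were lower. SYP121, a syntaxin that delivers PIP channels to the plasma membrane, was lower in sid2-2 at 15 min (-0.36), where 2.43% of all genes were lower. It was higher there at 3 h (0.56) and 6 h (0.38). It is from a list of 9 regulators and trafficking partners of aquaporins, the rest of which are not described here.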
